A study of Mus musculus with 36 samples.

Results

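Genes with a part in Hirschsprung disease or in the migration of neural crest cells were followed through the deposited expression tables of embryonic mouse gut. A set of 6 was chosen by name, and all 6 were found among 23847 gene entries with 23361 distinct names. Described here are 5 of the 6: L1cam, Zeb2, Sema3c, Sema3d and Nrg1. RNA had been taken from dissected gut at 3 embryonic stages, from E10.5 over E12.5 to E14.5. By their labels the embryos were wild type or homozygous Ret null, of either sex. With 3 libraries to a group this made 12 groups and 36 libraries, all of the strain C57BL/6J. The labels do not give the Ret allele, and they leave unsaid whether replicates are different embryos. The p-values therefore describe only how these samples scatter, and that scatter may be technical.

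The enteric nervous system is built by neural crest cells that leave the hindbrain, enter the foregut and move down the gut wall while they divide and turn into neurons and glia. The receptor Ret, stimulated by GDNF from the mesenchyme, drives this colonization, and in Hirschsprung disease the end of the gut stays without ganglia. The 5 genes act beside that pathway. L1cam is an X-linked adhesion molecule of neurites and of migrating crest cells. Zeb2 is a zinc finger repressor of E-cadherin, mutated in Mowat-Wilson syndrome. Sema3c and Sema3d are secreted guidance ligands read by neuropilins and plexins. Nrg1 is an EGF-like ligand read by ErbB3 with ErbB2.

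In the mm10 coordinates of the deposited tables, L1cam lies at chrX:73853780-73880834, Zeb2 at chr2:44983634-45113279, Sema3c at chr5:17574816-17730267, Sema3d at chr5:12383166-12588943 and Nrg1 at chr8:31818028-31918203. Each value is a sum over a gene's transcripts. The Nrg1 entry covers 9.2% of the 1084158 bases that RefSeq gives this gene and holds 1 start, so its value describes a part of the locus. Whether RNA from the other starts adds to it was not tested. The other entries cover at least 96.8% of the RefSeq span.

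The 250 bases before the transcription start are shown for 3 genes whose RNA moved in different ways. L1cam followed the summed neuron markers of each library. The related ligands Sema3c and Sema3d sit on the same chromosome and changed in opposite directions from E12.5 to E14.5 in wild type. The sequences are from RefSeq (GRCm38.p6), read 5′ to 3′ on the strand of the gene. Capitals mark 2 short motifs found on either strand: the GC box GGGCGG, and the E-box CACCTG, the letters to which Zeb2 and related zinc finger repressors bind. For L1cam the start that adjoins the gene entry of the files was used, at chrX:73880835-73881084 on the minus strand, with Sema3c at chr5:17574566-17574815 and Sema3d at chr5:12382916-12383165, both on the plus strand.
L1cam: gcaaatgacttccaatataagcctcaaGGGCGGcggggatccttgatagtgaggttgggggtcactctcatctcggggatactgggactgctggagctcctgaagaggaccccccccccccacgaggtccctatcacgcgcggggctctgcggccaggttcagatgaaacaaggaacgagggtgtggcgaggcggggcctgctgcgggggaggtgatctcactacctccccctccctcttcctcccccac
Sema3c: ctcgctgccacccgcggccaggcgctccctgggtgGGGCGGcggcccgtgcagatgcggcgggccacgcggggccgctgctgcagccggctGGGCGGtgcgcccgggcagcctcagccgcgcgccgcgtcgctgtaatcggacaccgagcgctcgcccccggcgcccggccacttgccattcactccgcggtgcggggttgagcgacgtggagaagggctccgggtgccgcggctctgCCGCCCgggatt
Sema3d: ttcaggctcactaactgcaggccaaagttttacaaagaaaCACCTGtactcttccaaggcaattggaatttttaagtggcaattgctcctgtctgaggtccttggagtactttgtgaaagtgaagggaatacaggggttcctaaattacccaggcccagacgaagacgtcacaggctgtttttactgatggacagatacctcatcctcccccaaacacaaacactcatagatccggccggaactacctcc

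Sema3c held 3 GC boxes and 78.4% G and C, L1cam held 1 GC box and 63.2%, and Sema3d held no GC box, 1 E-box and 46.8%. Over 32851 promoters of this length in the same table, 32.74% held a GC box and 17.22% an E-box, so neither motif is rare. A match in letters is a description and shows no binding.

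Before the results, the labels were set against the RNA. Ret stood at 2.11 to 13.3 FPKM (fragments scaled to transcript length and library size) in the 18 wild-type libraries and at 0.0111 to 0.0587 FPKM in 11 of the 18 labelled Ret null. Ret RNA was present at 4.74 to 6.49 FPKM in the remaining 7: all 3 E10.5 females, E12.5 male 2, and E14.5 females 1 and 3 and male 1. Genotype results are therefore given for all libraries as labelled and again without these Ret-holding libraries. That leaves 11 libraries labelled Ret null, picked by their Ret RNA, which crest cells themselves make. At E10.5 only labelled males remain among them. Each E10.5 genotype value without the Ret-holding libraries is therefore a contrast of males, not one averaged over sexes. The change of the effect from E10.5 to E12.5 then sets both sexes against males. At E14.5 female 2 is the only female left, so the female part of that contrast rests on 1 library labelled Ret null. Sex-linked RNA went against the sex label in 4 libraries, and 4 pairs of libraries agreed within sampling noise and were each averaged, so that 32 samples were counted. E12.5 wild-type females 1 and 2, which form 1 of these pairs, held RNA of both sexes. They had Xist at 49.1 and 52.2 FPKM and Ddx3y at 4.91 and 4.98 FPKM. Fragments behind the values, in units of 10 to the power of 6, estimated from the width of the deposited intervals and summed over genes, numbered 5.35 to 46.34 per library and went with stage and group: 7.52 to 20.2 in wild type and 7.38 to 10.93 in libraries labelled Ret null at E10.5, and 5.35 to 7.54 against 7.08 to 9.22 at E14.5. As a check of the tissue, all 7 gut epithelium and all 8 gut mesenchyme markers were at 1 FPKM or more in every wild-type library. All 9 neuron markers were so at E12.5 and E14.5, and 5 of the 9 at E10.5. In bulk RNA, fewer cells of a type and less RNA per cell cannot be told apart.

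Across the 36 libraries L1cam varied most, from 0.316 to 10.01 FPKM (median 3.53), a 31.7-fold range. Nrg1 was the lowest of the 5, at 0.5684 to 3.15 FPKM (median 1.54). Sema3d lay at 1.64 to 7.40 FPKM (median 5.38), Sema3c at 8.30 to 19.35 (median 10.35) and Zeb2 at 5.45 to 16.26 (median 10.89). The estimated fragments behind a value were fewest for Nrg1 (23 to 185, median 52) and L1cam (27 to 1074, median 337), so single Nrg1 values are the least precise. Sema3d, Sema3c and Zeb2 had medians of 450, 705 and 2009 fragments.

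**Figure D1:**
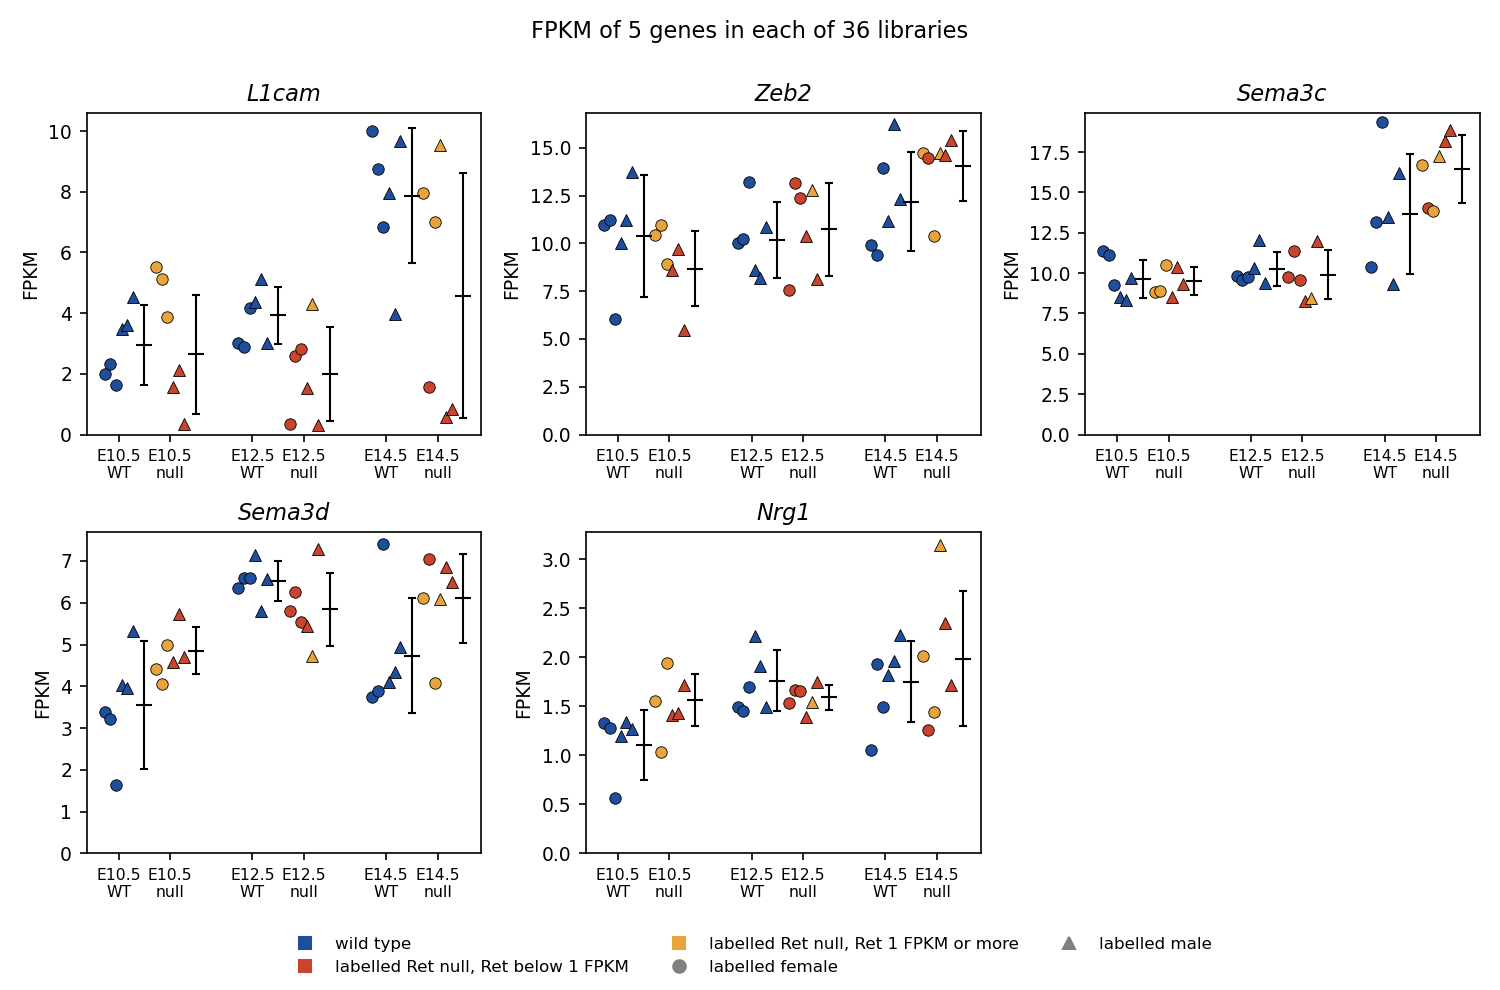
FPKM (linear axis) of each gene in each of the 36 libraries, by stage and genotype label; circles are labelled female, triangles male, and black bars give the mean and SD of the samples counted. L1cam spans 0.316 to 10.01 FPKM with the Ret-holding libraries (orange) among the wild type at E14.5, and Nrg1 stays between 0.5684 and 3.15 FPKM.

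In wild type Zeb2 and Sema3c stood at the top of the order of levels and Nrg1 at the bottom at all 3 stages. At E10.5 the means were 10.38 FPKM for Zeb2, 9.66 for Sema3c, 3.56 for Sema3d, 2.96 for L1cam and 1.104 for Nrg1. Zeb2 and Sema3c did not differ beyond their spread, with Zeb2 higher in 2 of 4 samples, and every other neighbour in the order was higher in 4 of 4 samples. At E12.5 Sema3c (10.25 FPKM) and Zeb2 (10.19 FPKM) again overlapped, with Sema3c higher in 2 of 5 samples, and Sema3d, L1cam and Nrg1 followed in the order of E10.5. At E14.5 Sema3c (13.65 FPKM) was above Zeb2 (12.17 FPKM) in 5 of 6 samples, Zeb2 was above L1cam (7.87 FPKM) in 5 of 6, and L1cam was above Sema3d (4.73 FPKM) in 4 of 6. Nrg1 (1.75 FPKM) stayed below Sema3d in 6 of 6.

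Stage comparisons in wild type show when each gene's RNA changed while crest cells colonize the gut. From E10.5 to E12.5 Sema3d rose, and the other 4 genes did not pass the test. From E12.5 to E14.5 Sema3c rose while Sema3d fell. Over the whole interval, E10.5 to E14.5, L1cam, Sema3c, Sema3d and Nrg1 rose, and Zeb2 did not pass the test. Tests were made by limma on log2(FPKM + 1), with p-values adjusted over all genes by the Benjamini-Hochberg method and called under 0.05, and fold changes on that scale understate changes of low genes. At E12.5 against E10.5 1 of the 5 was called, where 4.57% of all 14321 genes tested were called. At E14.5 against E12.5 2 of the 5 were called, against 58.9% of all genes. At E14.5 against E10.5 4 of the 5 were called, against 56.7%. With shares that high over all genes, the counts say little about these 5 in particular, and depth also went with stage.

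**Figure D2:**
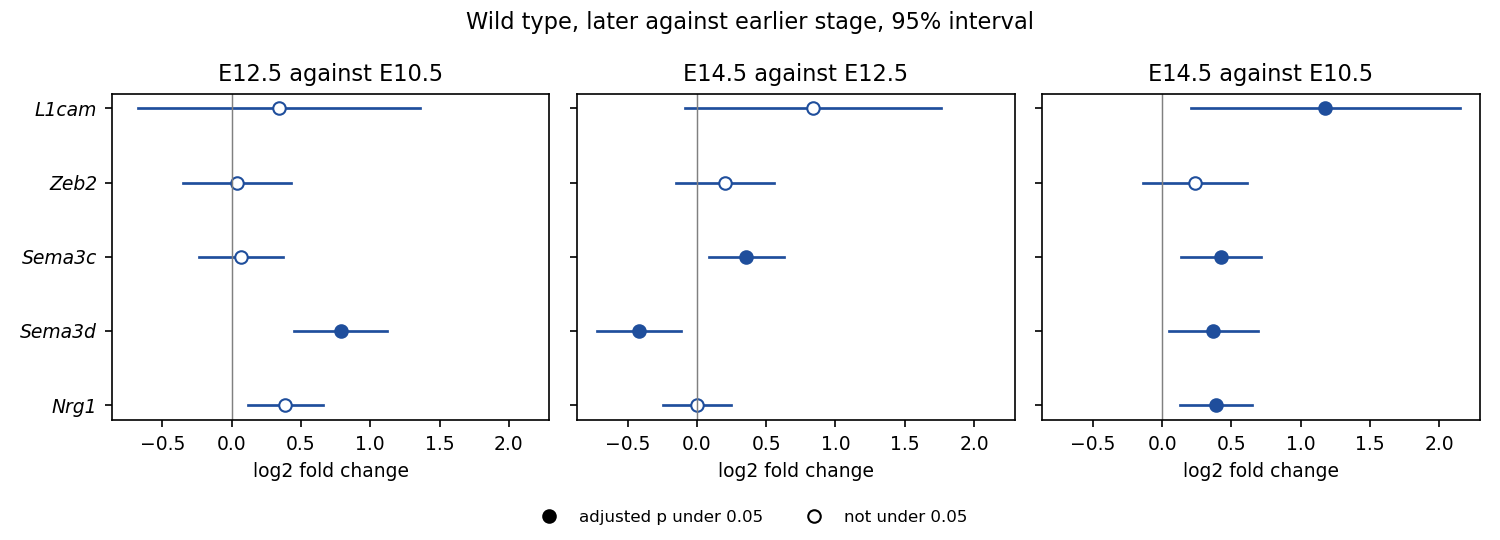
Log2 fold change (horizontal axis) of each gene between stages in wild type, with its 95% interval from limma; filled points have an adjusted p under 0.05. Sema3d stands at 0.79 and then at -0.42, and L1cam at 1.18 from E10.5 to E14.5.

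Genotype comparisons ask what the gut lacks, or gains, when embryos are labelled Ret null. L1cam was lower on average in the libraries without Ret RNA at every stage, and that difference passed the test at E14.5 only. At E10.5 the comparison was of labelled males alone. The libraries without Ret there (0.340 to 2.11 FPKM) overlapped wild type of both sexes (1.62 to 4.52 FPKM). Zeb2, Sema3c, Sema3d and Nrg1 did not pass the test at any stage. As labelled, limma called 0 of the 5 at E10.5, where 8.29% of 13165 genes were called and 3713 had an unadjusted p under 0.05, Sema3d among them (unadjusted p = 0.0291). It called 0 of 5 at E12.5, where 1 gene of 13182 (0.00759%) was called and 1115 had an unadjusted p under 0.05, L1cam among them (unadjusted p = 0.0490, adjusted p = 0.585). It called 0 of 5 at E14.5, where 15.7% of 13861 genes were called and 4963 had an unadjusted p under 0.05, none of the 5 among them. Without the Ret-holding libraries 0 of the 5 were called at E10.5 (0.522% of all genes, with 2634 at an unadjusted p under 0.05, L1cam among them) and 0 at E12.5 (0.259%, with 1033, L1cam among them). At E14.5 it was 1, L1cam, where 8.61% of all genes were called.

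**Figure D3:**
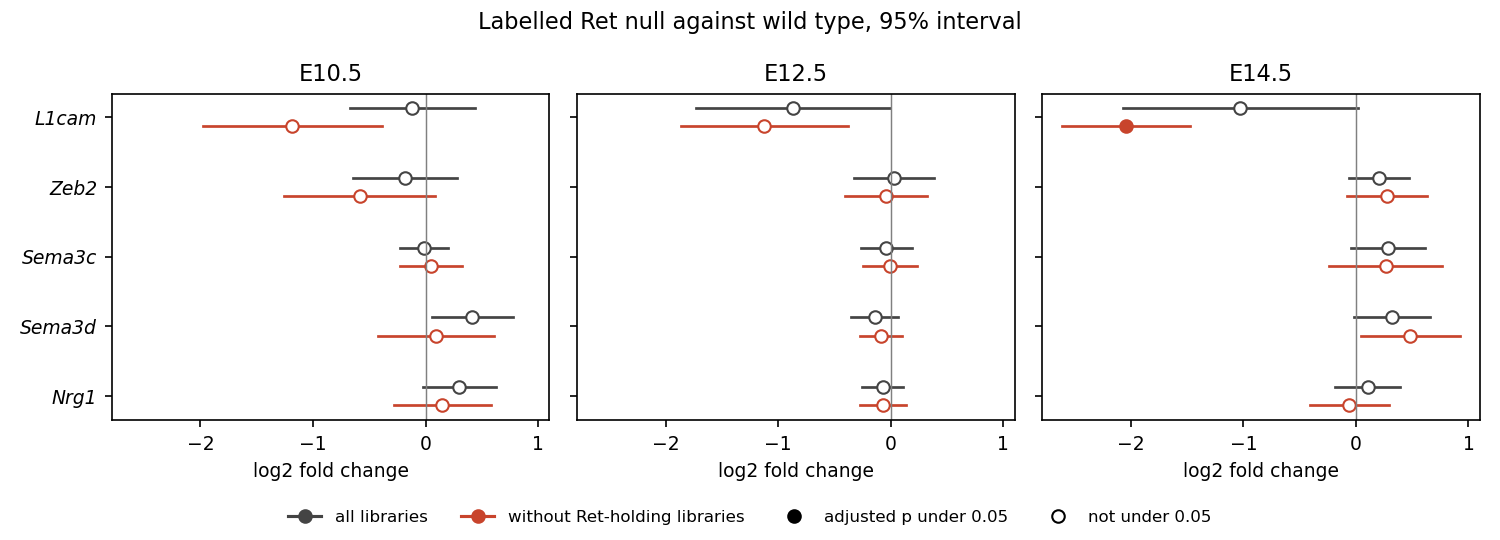
Log2 fold change (horizontal axis) of libraries labelled Ret null against wild type at each stage with its 95% interval from limma, for all libraries (grey) and without the Ret-holding ones (red); filled points have an adjusted p under 0.05. L1cam moves from -1.03 to -2.04 at E14.5 when the Ret-holding libraries are left out, and Sema3d from 0.32 to 0.48, where neither value is called. At E10.5 the red values come from labelled males alone.

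L1cam is the adhesion molecule of the group. At E14.5 it stood at 10.01, 8.76 and 6.85 FPKM in wild-type females and at 7.96, 3.97 and 9.66 FPKM in wild-type males. The 3 libraries labelled Ret null that lacked Ret RNA had 1.56 (female 2), 0.573 (male 2) and 0.828 FPKM (male 3). Those that held Ret had 7.96 (female 1), 7.02 (female 3) and 9.54 FPKM (male 1). The libraries without Ret lay below all 6 of wild type, and those with Ret lay inside the wild-type range. Of the 3 without Ret, males 2 and 3 differed by 1.101 times the sampling noise. The limit for averaging a pair was 1.1, so n = 3 may overstate the distinct samples. Female 2 was the only female among the 3, and the contrast averaged the sexes. L1cam averaged 0.989 ± 0.515 FPKM (SD, n = 3) without Ret and 7.87 ± 2.23 FPKM (SD, n = 6) in wild type, a log2 change of -2.04 (SE 0.247, adjusted p = 0.00934 by limma). Without null male 2 the value was -1.99 with an adjusted p = 0.0564, and over all 15 alternatives the adjusted p ran from 0.000785 to 0.0564. As labelled, with all 6 libraries, the difference was -1.03 (SE 0.475, adjusted p = 0.145), and -1.47 (adjusted p = 0.0331) without null male 1, which held Ret.

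For L1cam the E12.5 libraries gave the same order at closer distance. Wild type held 3.02, 2.89 and 4.18 FPKM in females and 4.38, 5.12 and 3.01 FPKM in males. The libraries labelled Ret null without Ret held 0.357, 2.596 and 2.83 FPKM in females and 1.54 and 0.316 FPKM in males 1 and 3, and male 2, which held Ret, had 4.31 FPKM. All 5 without Ret lay below all 6 of wild type, though females 2 and 3 came close. In these females stomach markers summed to 3.19 and 2.92 FPKM, against 91.1 to 130.7 FPKM in the others without Ret. Wild type ran from 2.45 to 200.3 FPKM, and the part of stomach tissue in the L1cam values was not tested. The fold change without the Ret-holding library was -1.12 on the log2 scale (SE 0.326, unadjusted p = 0.00782, adjusted p = 0.475).

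At E10.5 the sexes, as labelled, went in opposite directions, and L1cam differed by -0.12 over both (adjusted p = 0.778). L1cam stood at 5.51, 5.12 and 3.86 FPKM in the females labelled Ret null, all of which held Ret, and at 1.997, 2.32 and 1.62 FPKM in wild-type females. The males labelled Ret null, none of which held Ret, had 1.57, 2.11 and 0.340 FPKM and wild-type males 3.47, 3.598 and 4.52 FPKM. The groups did not overlap in either sex. Without the Ret-holding libraries the males alone gave -1.18 (SE 0.337, adjusted p = 0.147), and -1.13 (adjusted p = 0.0383) with every library counted, which takes near-identical pairs as separate samples. Some tissue markers also differed between these males. Stomach markers summed to 92.1 to 129.2 FPKM in those labelled Ret null and 2.56 to 7.60 FPKM in wild type. Gut epithelium markers summed to 186.8 to 224.2 against 95.6 to 96.9 FPKM, and gut mesenchyme markers to 812.0 to 832.8 against 640.2 to 650.5 FPKM. Their part in the L1cam values was not tested. The difference of the genotype effect between the sexes, male minus female, was -2.13 (SE 0.484, unadjusted p = 0.00218, adjusted p = 0.115), and -2.10 (adjusted p = 0.00730) with every library counted, where the 3 near-identical pairs of E10.5 enter as separate samples and the number of distinct samples is overstated. Labelled sex and Ret RNA split the libraries labelled Ret null in the same way at E10.5, so by the labels an effect of sex and one of Ret cannot be told apart. By sex-linked RNA the split differed. Female 3 had male RNA (Ddx3y 13.5 FPKM, Xist 0.911 FPKM) and held Ret, and male 1 had female RNA (Xist 66.1 FPKM) and lacked Ret. Among those with female RNA L1cam stood at 5.51 and 5.12 FPKM with Ret and 1.57 FPKM without. Among those with male RNA it stood at 3.86 FPKM with Ret and 2.11 and 0.340 FPKM without. Wild-type females, with female RNA and Ret at 2.11 to 5.81 FPKM, had 1.62 to 2.32 FPKM of L1cam, near that 1.57 FPKM. Male 1 entered the -1.18 as a male. These are few libraries, and the parts of sex and Ret were not tested. No gene passed the test of the genotype effect between the sexes at E10.5, E12.5 or E14.5 by limma (0% of 13165, 13182 and 13861 genes). Still, 2459, 304 and 533 had an unadjusted p under 0.05, and 1917 were called at E10.5 with every library counted.

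L1cam moved with the neuron marker RNA of the library. The summed level of 9 neuron markers (Tubb3, Elavl3, Elavl4, Stmn2, Snap25, Uchl1, Prph, Gal and Ina) ran from 104.9 to 235.6 FPKM in wild type at E14.5, from 192.1 to 219.9 FPKM in those 3 with the null label that held Ret and from 23.9 to 39.9 FPKM in the 3 without. In those last 3, Elavl3, Elavl4, Snap25, Gal and Ina were below 1 FPKM in every library. At E12.5 the sum was 91.1 to 138.2 FPKM in wild type against 16.8 to 78.7 FPKM in the 5 libraries without Ret, of which females 2 and 3 had 75.7 and 78.7. At E10.5 it was 103.9 to 115.1 FPKM in the females labelled Ret null and 26.8 to 47.5 FPKM in wild-type females. So the libraries high in L1cam were high in neuron markers, also where that went against the genotype label. The crest progenitor and glia markers (Sox10, Ednrb, Foxd3, Fabp7, Erbb3 and Sox8) summed to 63.0 to 92.9 FPKM in wild type at E14.5, 79.7 to 104.0 FPKM with Ret and 43.4 to 48.9 FPKM without, where Foxd3 was below 1 FPKM in every library. Erbb3, a part of this sum, was not lower in the libraries without Ret, while Sox10 was. The part of the neuron markers in the L1cam difference was not tested.

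**Figure D4:**
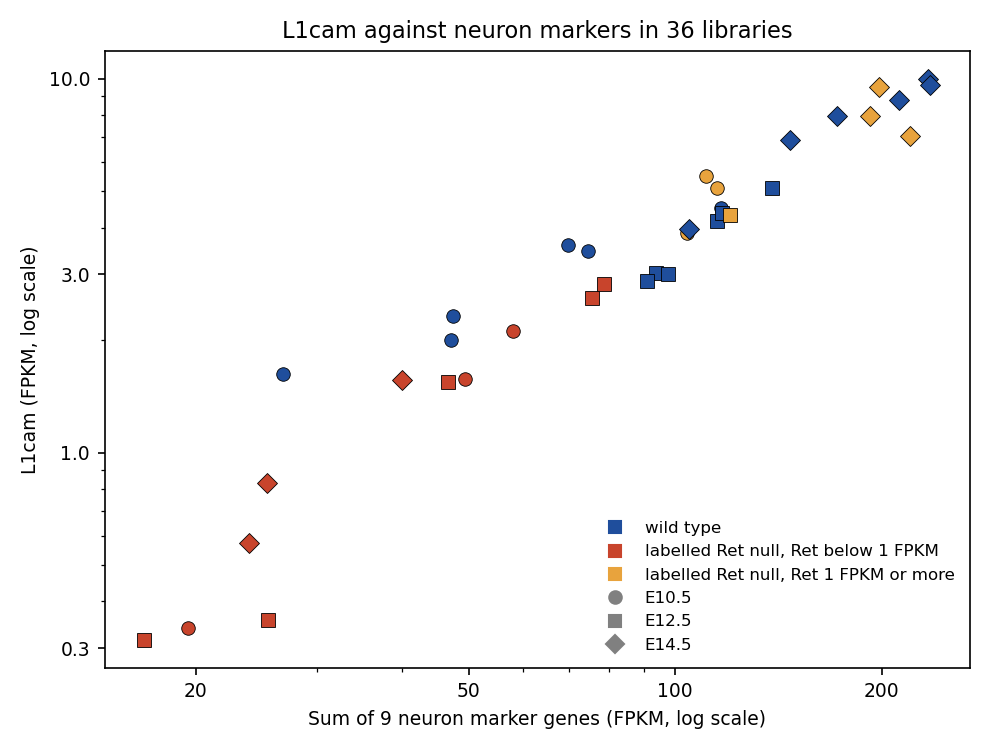
L1cam (vertical, FPKM, log scale) against the summed FPKM of 9 neuron markers (horizontal, log scale), 1 point for each of 36 libraries; colour gives genotype label and Ret RNA, shape gives stage. The points lie along 1 line at all stages, with Pearson's r of 0.9748 on log2 values.

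Across the 36 libraries L1cam and the neuron sum had a Pearson's r of 0.9748 and a Spearman's rho of 0.973 on log2(FPKM + 1), and 0.981 and 0.958 once each stage's mean was subtracted. The genes whose pattern over the 32 samples was most like L1cam among 14397 genes were Rtn1 (r 0.982), Elavl3 (0.9747) and Celf3 (0.969), and with the stage mean subtracted Elavl3 (0.985), Tubb3 (0.983) and Rtn1 (0.982). Elavl3 is an RNA-binding protein of neurons, Celf3 a brain-enriched splicing factor, Tubb3 a tubulin of neurons. Ret itself ranked 155 with r 0.807. These values describe samples that share groups and stages, and they carry no test.

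In wild type L1cam rose from 2.96 ± 1.32 FPKM (SD, n = 4) at E10.5 to 7.87 ± 2.23 FPKM (SD, n = 6) at E14.5, by a log2 of 1.18 (SE 0.469, adjusted p = 0.0362). The call held in 7 of 19 alternatives, with adjusted p from 0.000532 to 0.0967, and neuron markers rose over the same interval, from 26.8 to 116.5 FPKM at E10.5 to 104.9 to 235.6 FPKM at E14.5. The step from E12.5 (3.93 ± 0.934 FPKM, n = 5) to E14.5 measured 0.84 (adjusted p = 0.1103), and 0.84 with an adjusted p = 0.00318 when wild-type libraries were fitted alone. Wild-type male 2 at E14.5 had the lowest L1cam of its group, 3.97 FPKM, and the highest sum of 5 heart markers, 1162 FPKM against 16.0 to 45.4 FPKM in the other 5.

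Of the 10 L1 relatives and partners, 8 were tested in wild type from E10.5 to E14.5, and 4 rose and 0 fell (median 0.32 against 0.02 over all genes), where 56.7% of all genes were called. They were Itga5 (0.82) and Itgb1 (0.34), which form a fibronectin receptor, the L1 paralog Chl1 (0.70) and the ankyrin Ank2 (0.47). At E14.5 without the Ret-holding libraries 2 of 8 fell, the L1 paralog Nfasc by 0.99 and Ank2 by 0.54, and 1 rose, Ank3 (0.36), where 8.61% of all genes were called. The list's median there was -0.33 against 0.03 over all genes. Nfasc averaged 0.580 ± 0.0758 FPKM (n = 3) without Ret and 2.25 ± 0.735 FPKM (n = 6) in wild type. At E12.5 without the Ret-holding library 2 of 8 fell, Chl1 by 0.67 and Nrcam by 0.55, another L1 paralog (0.259% of all genes), and with all libraries as labelled none of the list was called at any stage.

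Zeb2, the repressor, passed no test of stage or genotype. Wild type averaged 10.38 ± 3.19 FPKM (SD, n = 4) at E10.5, 10.19 ± 2.0 (n = 5) at E12.5 and 12.17 ± 2.595 (n = 6) at E14.5. No stage step passed the test: 0.04 from E10.5 to E12.5 (95% interval -0.35 to 0.43), 0.20 from E12.5 to E14.5 (-0.15 to 0.55) and 0.24 over both (-0.14 to 0.61; adjusted p = 0.271). Nor did any genotype comparison, with -0.18 at E10.5, 0.03 at E12.5 and 0.20 at E14.5 (adjusted p = 0.585, 0.960 and 0.247). Zeb2 gave -0.59, -0.04 and 0.28 without the Ret-holding libraries (adjusted p = 0.296, 0.940 and 0.250), so that the E10.5 value was larger and the E12.5 value changed sign. These intervals do not show that the levels were equal. The -0.59 at E10.5 came from labelled males alone, while the -0.18 was averaged over both sexes.

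At E14.5 the libraries labelled Ret null had 14.7, 14.4 and 10.4 FPKM of Zeb2 in females and 14.7, 14.6 and 15.4 FPKM in males. Wild type had 9.91, 9.41 and 14.0 FPKM in females and 11.2, 16.3 and 12.3 FPKM in males. Female 3 labelled Ret null stood apart below the other 5 of its label and inside the wild-type range. Wild-type male 2, which held heart RNA, was the highest of all, and wild-type female 3 came next in its group. The 3 libraries without Ret, which were low in neuron markers, had 14.4, 14.6 and 15.4 FPKM of Zeb2. Its correlation with Ret over the 32 samples was 0.115. With the stage mean subtracted the genes nearest to it were Dip2b (r 0.851), Ppp3ca (0.847) and Tmem241 (0.845).

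Among the 8 Zeb2 relatives and partners 2 rose and 4 fell in wild type from E10.5 to E14.5, with a median of -0.15 against 0.02 over all genes, of which 56.7% were called. Cdh1, the epithelial cadherin that Zeb2 represses, rose by a log2 of 2.46, from 9.76 ± 2.36 to 58.8 ± 14.7 FPKM, while the summed gut epithelium markers, of which it is 1, rose from 95.6 to 288.9 FPKM to 408.5 to 772.4 FPKM. The paralog Zeb1 fell by 0.48, and the signal transducers Smad5 and Smad3, which bind Zeb proteins, fell by 0.69 and 0.55. At E14.5 in the libraries labelled Ret null, 2 of 8 rose, Smad5 (0.33) and Smad3 (0.26), against 15.7% of all genes called, and they rose also without the Ret-holding libraries (0.45 and 0.38).

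Sema3c and Sema3d are the secreted ligands. Sema3d was lowest at E10.5, with 3.39, 3.23 and 1.64 FPKM in wild-type females and 4.02, 3.95 and 5.32 FPKM in males. At E12.5 it stood at 6.36, 6.59 and 6.59 FPKM in wild-type females and 7.13, 5.79 and 6.57 FPKM in males, above every E10.5 library. The rise measured 0.79 (SE 0.163, adjusted p = 0.00594), and 0.61 with an adjusted p = 0.0617 without wild-type female 3 of E10.5. By E14.5 it had come down to 3.74, 3.88 and 7.40 FPKM in females and 4.10, 4.34 and 4.93 FPKM in males, with female 3 apart from the other 5. That fall measured -0.42 (SE 0.147, adjusted p = 0.0182) and held in 16 of 20 alternatives, with adjusted p from 0.000987 to 0.0557. It was not called without wild-type female 1 of E14.5 (adjusted p = 0.0551) or female 2 of E14.5 (0.0521). Nor was it called without wild-type female 3 of E12.5, or without the libraries against their sex label. The net rise from E10.5 to E14.5 (0.37, adjusted p = 0.0467) held in 9 of 19 alternatives and was 0.19 (adjusted p = 0.339) without wild-type female 3 of E10.5 and 0.23 (adjusted p = 0.148) without wild-type female 3 of E14.5.

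Sema3c took another course. It averaged 9.66 ± 1.18 FPKM (SD, n = 4) at E10.5, 10.25 ± 1.08 (n = 5) at E12.5 and 13.65 ± 3.71 (n = 6) at E14.5. The step from E12.5 to E14.5 was 0.36 (SE 0.132, adjusted p = 0.0236) and the whole rise 0.43 (adjusted p = 0.0119), which was 0.36 (adjusted p = 0.0616) without wild-type female 3 of E10.5 and 0.38 (adjusted p = 0.0531) without the pair of near-identical E10.5 males. The E14.5 values, 10.4, 13.2 and 19.3 FPKM in females and 13.4, 9.30 and 16.2 FPKM in males, overlapped those of E12.5, 9.40 to 12.08 FPKM. The later step held in 13 of 20 alternatives, and it was 0.24 with an adjusted p = 0.0841 without wild-type female 3 of E14.5. Nor was that step called without the libraries against their sex label.

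Neither ligand passed the genotype test as labelled. At E14.5 Sema3d in libraries labelled Ret null had 6.11, 7.04 and 4.07 FPKM in females and 6.09, 6.85 and 6.49 FPKM in males, a log2 change of 0.32 (SE 0.153, adjusted p = 0.153). Female 3 was the lowest of these and lay inside the wild-type range, while wild-type female 3 (7.40 FPKM) was the highest E14.5 library of either label. Sema3c gave 0.28 (SE 0.149, adjusted p = 0.193), from 16.7, 14.0 and 13.9 FPKM in females and 17.3, 18.2 and 18.8 FPKM in males. Without wild-type female 3, Sema3d gave 0.46 (adjusted p = 0.0233) and Sema3c 0.40 (adjusted p = 0.0497), both past the threshold. Left out together, a choice made after these values were seen and so no support for a call, the E14.5 females numbered 3 moved Sema3d to 0.55 (adjusted p = 0.00228), Sema3c to 0.42 (adjusted p = 0.0487) and Zeb2 to 0.36 (adjusted p = 0.0191). Both of these libraries held Ret, at 8.73 FPKM in the wild-type one and 5.76 FPKM in the one labelled Ret null. Whether the labels of these 2 libraries are right was not tested, and the E14.5 genotype values as labelled include both. Sema3d gave 0.48 (adjusted p = 0.133) and Sema3c 0.26 (adjusted p = 0.432) without the Ret-holding libraries. Sema3c averaged 15.94 ± 1.83 FPKM with Ret and 17.02 ± 2.62 FPKM without (n = 3 each), and these overlapped. Pancreas and heart markers reached higher in wild type at E14.5, and the labels overlapped. The 5 pancreas markers summed to 171.8 to 1797 FPKM in wild type and 91.8 to 293.5 FPKM in libraries labelled Ret null, with Prss1 under 1 FPKM in all of the latter. The 5 heart markers summed to 16.0 to 1162 and 9.31 to 25.4 FPKM. Their part in the values of Sema3d and Sema3c was not tested.

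At E10.5 Sema3d had 4.424, 4.05 and 4.9999 FPKM in females labelled Ret null and 4.58, 5.74 and 4.70 FPKM in males (0.41, adjusted p = 0.133; 0.59 and 0.0292 without the near-identical pair of wild-type females). The Sema3d difference was 0.09 (adjusted p = 0.841) without the Ret-holding libraries, in labelled males alone. Sema3c differed by -0.01 (95% interval -0.22 to 0.20). Several marker sums moved with the label at E10.5. The smooth muscle markers stood at 84.3 to 208.3 FPKM in wild type and 319.5 to 449.4 FPKM in libraries labelled Ret null. Mesothelium markers stood at 63.4 to 67.4 FPKM against 47.8 to 58.2 FPKM. Neural tube markers stood at 0.333 to 2.73 FPKM against 3.39 to 5.097 FPKM. Of these Pax6, Olig2 and Sox1 were below 1 FPKM in every library, so the sum does not show that neural tube tissue was present. Pancreas markers stood at 2.52 to 12.64 FPKM against 12.21 to 17.5 FPKM. Red cell markers overlapped, with medians of 2070 FPKM in wild type and 501.2 FPKM in libraries labelled Ret null. Their part in the Sema3d values was not tested. At E12.5 Sema3d differed by -0.14 and Sema3c by -0.04 (adjusted p = 0.653 and 0.910). The pattern of Sema3d was most like those of Egfr (r 0.859), Bcl2 (0.854) and Camk4 (0.820), and that of Sema3c like Atp11b (0.887), Pard3b (0.887) and Esyt2 (0.887), and Ret had an r of -0.166 and 0.0499 with them.

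The receptors Nrp1, Nrp2 and Plxnd1 were more abundant than Sema3d in wild type at E10.5 and E14.5. Of the neuropilins, the ligand-binding subunits, Nrp1 stood at 29.3 ± 5.34 FPKM at E10.5 and 20.9 ± 2.87 FPKM at E14.5 in wild type, and Nrp2 at 30.2 ± 6.48 and 30.5 ± 7.71 FPKM. Plxnd1, the plexin that reads Sema3c with a neuropilin, stood at 26.0 ± 6.05 and 27.3 ± 4.93 FPKM. Over that interval 0 of 8 receptors rose and 2 fell, Plxna2 by 1.11 and Nrp1 by 0.47, where 56.7% of all genes were called. Of the 5 other class 3 semaphorins 1 rose, Sema3b (1.34, from 2.63 ± 1.02 to 8.12 ± 1.92 FPKM). At E10.5 in libraries labelled Ret null 2 of 8 receptors rose, Nrp2 (0.66) and Plxna3 (0.28), and 1 fell, Plxna2 (-0.25), where 8.29% of all genes were called. None of these 3 was called there without the Ret-holding libraries (0.46, 0.04 and -0.18, adjusted p = 0.123, 0.798 and 0.296). At E14.5 0 of 8 receptors and 1 of 5 semaphorins passed, Sema3a, which rose by 0.48, where 15.7% of all genes were called. None of either list passed there without the Ret-holding libraries, where 8.61% were.

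Nrg1 is the ErbB ligand. In wild type it stood at 1.33, 1.28 and 0.5684 FPKM in E10.5 females and at 1.20, 1.34 and 1.27 FPKM in males, and female 3 lay apart from the rest. It averaged 1.104 ± 0.358 FPKM (SD, n = 4) at E10.5, 1.76 ± 0.313 (n = 5) at E12.5 and 1.75 ± 0.412 (n = 6) at E14.5. The rise from E10.5 to E14.5 was 0.39 (SE 0.126, adjusted p = 0.0115), and 0.25 with an adjusted p = 0.123 without that female. The step to E12.5 was 0.39 too (adjusted p = 0.0992), and from E12.5 to E14.5 it was 0.00 (95% interval -0.25 to 0.25).

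No genotype comparison of Nrg1 passed as labelled: 0.30 at E10.5 (adjusted p = 0.203), -0.07 at E12.5 (adjusted p = 0.787) and 0.10 at E14.5 (95% interval -0.18 to 0.39, adjusted p = 0.590). The E14.5 libraries labelled Ret null ran from 1.26 to 3.15 FPKM and wild type from 1.06 to 2.23 FPKM, so they overlapped. Nrg1 gave 0.15, -0.07 and -0.06 without the Ret-holding libraries (adjusted p = 0.669, 0.817 and 0.815). The genes most like it were Etv1 (r 0.845), Gna14 (0.740) and Spry2 (0.737); Etv1 is an ETS transcription factor and Spry2 an inhibitor of receptor tyrosine kinase signalling.

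Of the receptors of Nrg1, Erbb3 rose in wild type over the same interval. Erbb3 binds Nrg1 and stands in the list of crest and glia markers. It went from 4.203 ± 1.298 FPKM at E10.5 to 7.22 ± 1.32 at E12.5 and 12.1 ± 2.68 at E14.5, a log2 of 1.34 over the interval. Its partner Erbb2 stood at 14.3 ± 2.04 and 15.4 ± 1.78 FPKM at the ends of that interval. Of the 6 tested receptors and proteases Erbb3 was the 1 that rose from E10.5 to E14.5, and Adam17, a protease that sheds such ligands, fell by 0.17, so that 2 of 6 were called where 56.7% of all genes were. Bace1, the other protease named for neuregulin cleavage, averaged 12.05 ± 1.25 FPKM at E10.5 and 13.6 ± 1.63 FPKM at E14.5. At E14.5 1 of 6 rose in libraries labelled Ret null, Egfr (0.60; 0.72 without the Ret-holding libraries), which does not bind Nrg1; 15.7% of all genes were called as labelled and 8.61% without those libraries. Erbb3 stayed at 12.7 ± 0.919 FPKM in the 3 libraries without Ret, where Foxd3 of the same marker list was below 1 FPKM. Its level there did not go with that of crest markers such as Foxd3 and Sox10. Erbb4 was at 0.0847 ± 0.138 FPKM in wild type at E14.5. Of 3 other neuregulins, 2 were tested, and Nrg2 rose in wild type from E10.5 to E14.5 (0.62; 56.7% of all genes were called) and at E10.5 in libraries labelled Ret null (0.75; 8.29% of all genes). The E10.5 value of Nrg2 was 0.70 without the Ret-holding libraries and was not called (adjusted p = 0.185).

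Whether the genotype effect itself differed between stages was tested over all 12 groups. Sema3d came nearest to a call. Its effect changed by 0.47 from E12.5 to E14.5 (SE 0.202, unadjusted p = 0.0305, adjusted p = 0.108), and by 0.57 (SE 0.229, unadjusted p = 0.0234, adjusted p = 0.0909) without the Ret-holding libraries. As labelled it passed the test without female 3 labelled Ret null of E14.5 (0.56, adjusted p = 0.0384) and without wild-type female 3 of E14.5 (0.60, adjusted p = 0.0182). Without the Ret-holding libraries it passed when wild-type female 3 was also left out (0.70, adjusted p = 0.0107). From E10.5 to E12.5 the effect on Sema3d changed by -0.56 (unadjusted p = 0.0186, adjusted p = 0.224) and that on Nrg1 by -0.37 (unadjusted p = 0.0486, adjusted p = 0.339). Without the Ret-holding libraries these were -0.18 for Sema3d (adjusted p = 0.834) and -0.22 for Nrg1 (adjusted p = 0.697).

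The effect on L1cam changed by -0.16 from E12.5 to E14.5 as labelled (adjusted p = 0.877) and by -0.92 without the Ret-holding libraries (SE 0.457, adjusted p = 0.166), or -1.16 (adjusted p = 0.0396) without female 1 labelled Ret null of E12.5. By limma 0 of the 5 passed in either step. From E12.5 to E14.5 17.4% of all genes did as labelled and 18.0% without the Ret-holding libraries, with 4844 and 4845 at an unadjusted p under 0.05. From E10.5 to E12.5 1.34% did as labelled, and 0.00702% (1 gene) without the Ret-holding libraries, with 2086 and 1567 at an unadjusted p under 0.05.

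Set beside these 5, other disease genes were compared in the same way. Of 11 tested from a list of 12, 3 fell and 0 rose at E14.5 without the Ret-holding libraries: Ret itself, by which those libraries were chosen, Ednrb, the endothelin receptor (-0.53), and Sox10, a progenitor and glia factor (-1.65). Over all genes 8.61% were called there. As labelled, where 15.7% of all genes were called, Gdnf (0.75), Gfra1 (0.58) and Edn3 (0.44) rose and Nrtn fell by 0.57. At E10.5 as labelled (8.29% of all genes) Gfra1 (1.62), Gdnf (1.06) and Ednrb (0.69) rose and Ret fell by 1.23, and without the Ret-holding libraries (0.522%) Ret alone passed. At E12.5 without the Ret-holding library (0.259%) Ret and Sox10 fell, Sox10 by 1.86, and as labelled none passed, Ret included (-3.02, adjusted p = 0.255). At E14.5 Sox10 averaged 1.88 ± 0.579 FPKM without Ret and 8.82 ± 2.89 FPKM in wild type. In that comparison L1cam also fell, at -2.04, while Zeb2, Sema3c, Sema3d and Nrg1 stood at 0.28, 0.26, 0.48 and -0.06 and did not pass the test.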

How the data were processed

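RNA of dissected mouse gut was sequenced in 36 libraries after poly(A) selection with oligo dT beads, as paired ends, per the labels' protocols. The authors deposited FPKM values per gene with intervals and a status, and the submitters' processing notes name Picard, TopHat2, Cufflinks, Cuffdiff and mm10, with no versions. Counts were not among the files used, so depth was estimated from the interval widths. Of 36 pairs of libraries within groups, 4 had differences of 0.94 to 1.09 times the sampling noise (others 1.101 to 3.623 times) and were averaged, which left 32 samples.

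Values were analysed as log2(FPKM + 1) with limma 3.58.1 in R 4.3.3 (empirical Bayes with trend), for genes with 1 FPKM or more in at least 3 samples and status OK in all. Genotype was fitted within each stage over 4 groups, averaged over sexes, and stage and genotype by stage over all 12 groups. Without the Ret-holding libraries no female labelled Ret null was left at E10.5, so that contrast used males alone. P-values are two-sided and adjusted by the Benjamini-Hochberg method over all genes tested, with calls under 0.05. The script was tested on simulated data. A library labelled Ret null was taken to hold Ret at 1 FPKM or more. The 5 genes reported are named in each comparison, and up to 4 called genes of each list by smallest p, with the 3 genes of highest r. The members and lists were chosen with earlier results of these data known. 1 gene of the set of 6 and a few marker, list and correlated genes are not reported here. Figures were drawn with matplotlib 3.10.9.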

Additional observations from a re-analysis of the deposited data

Results flagged for a closer look

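Each gene was tested in each stage and genotype label, with 4 to 6 samples, for a sample far from the rest of its group. Of these 30 tests 4 found one. Chance alone gives about 1 in 20 for a single test. The 30 share libraries and are not independent, so the 4 cannot be set against that rate. At E14.5, female 3 labelled Ret null had 10.38 FPKM of Zeb2 where the other 5 had 14.45 to 15.4, and 4.075 FPKM of Sema3d where the others had 6.089 to 7.039. Wild-type female 3 of E14.5 had 7.398 FPKM of Sema3d where the others had 3.742 to 4.933. Wild-type female 3 of E10.5 had 0.5684 FPKM of Nrg1, with the other samples at 1.27 to 1.306.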

How the results depend on the processing

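Counts are of genes, then of the 5 members. Genotype at E10.5 gave 1091 genes and 0 members: 625 genes with no filter, 3774 with every library counted, 184 without the libraries against their sex label, 68 without the Ret-holding ones, and 179 to 1268 and 0 to 1 leaving out 1 replicate. E12.5 gave 1 gene and 0 members: 0 genes with every library counted, with the block or without the trend, 2 without the libraries against their sex label, 34 without the Ret-holding one, and 0 to 34 leaving out 1 replicate. E14.5 gave 2175 and 0: 1122 genes with the block, 1182 and 1 without the Ret-holding libraries, 4195 and 3 without both females 3, and 669 to 3554 and 0 to 2 leaving out 1 replicate. Without the Ret-holding libraries, E10.5 gave 68 and 0: 33 genes with a pseudocount of 0.1, 16 with no filter, 1034 and 1 with every library counted, 36 without the libraries against their sex label, and 3 to 282 leaving out 1 replicate. E12.5 gave 34: 65 with every library counted, 7 without the libraries against their sex label, and 5 to 66. E14.5 gave 1182 and 1: 663 genes with no filter, 191 with the block, and 51 to 2009 and 0 to 2. In wild type E12.5 against E10.5 gave 654 and 1: 1829 and 2 with every library counted, 264 genes without the libraries against their sex label, 386 from wild-type libraries alone, and 298 to 735 and 0 to 2. E14.5 against E12.5 gave 8431 and 2: 0 members without the libraries against their sex label, and 7450 to 8475 and 0 to 2. E14.5 against E10.5 gave 8122 and 4: 2 members with no filter, with the block or without the libraries against their sex label, and 7126 to 8203 and 0 to 3. The change of the genotype effect to E12.5 gave 192 genes: 769 with every library counted, 1 without the Ret-holding libraries, and 51 to 417, and without the Ret-holding libraries 1: 96 with every library counted, and 0 to 54. The change to E14.5 gave 2489 and 0: 4254 and 2 without both females 3, and 1342 to 3563 and 0 to 1, and without the Ret-holding libraries 2560, 1048 to 3416 and 0 to 1. Genotype by sex at E10.5 gave 0 and 0, and 1917 and 1 with every library counted. No called value changed sign: of 1250 single-gene values under an alternative, 1113 kept direction and call, 38 lost a call, 21 gained one and 78 uncalled values moved. The replicate block rests on replicate numbers, and the labels do not say whether these pair the samples. Deviations of same-numbered libraries had median correlations of 0.0393 at E10.5, 0.0474 at E12.5 and -0.00906 at E14.5. Single pairs reached 0.366, 0.352 and 0.214, so pairing is neither shown nor excluded. Leaving out both females 3 was chosen after seeing the data. The cause of these shifts was not tested. Precision is limited by 2 to 3 samples a group as labelled and, for Nrg1, by few fragments. Without the Ret-holding libraries the group of E14.5 females labelled Ret null holds 1 sample.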
